A study of Mus musculus and Homo sapiens with 7 samples.

Results

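The guides described here target mouse genes that the guide library listed under provisional names, those that end in Rik or consist of Gm and a number. Names were taken from the gene column of the deposited guide table, and 1 Rik name that is an older symbol of Eola1, the gene in the study's title, was left out. That gave 896 guides against 92 genes, of 10021 guides and 929 genes in all. The library also held 375 non-targeting guides, listed as none, and 375 safe-targeting guides, listed as safe and aimed at sites outside genes. The guides were carried by B16-F10 cells, a mouse melanoma line made to express Cas9 from a lentiviral vector and sorted for the fluorescent protein on that vector. Both groups went through puromycin selection (2 µg/mL, 7 days) and were then kept for 48 h in galactose or glucose medium. Guides were amplified from 5 µg of genomic DNA of dead cells from galactose medium (3 libraries, a, b and c) and of living cells from glucose medium (2 libraries, a and b). Medium and cell state changed together, so their effects cannot be told apart, and the labels do not say that the libraries came from separate cultures. The p-values below therefore describe the spread of these 5 libraries alone, and that spread may be technical.

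Rik names were given to cDNAs cloned by the RIKEN mouse transcript project, and Gm names to genes predicted from the mouse genome sequence. Both are placeholders that are replaced once a gene is related to a known family or function. In a pooled knockout screen each cell carries a guide that directs Cas9 to cut a gene, and the guide's frequency in the genomic DNA stands for the frequency of cells with that guide. Galactose yields little ATP through glycolysis and makes cells lean on respiration, so a guide against a gene needed for respiration could be more frequent among cells that died in galactose.

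All 92 names matched a protein-coding gene of the RefSeq table for assembly GRCm38.p6. Of these, 42 now carry another symbol (29 Rik and 13 Gm names) and 50 kept the provisional one. The renamed genes included Tigar, C9orf72, Faap20, Shld1, Majin and Carnmt1, so the name in the library does not mark a gene as unstudied. By textbook role, 7 genes encode H2A.L histones, 6 are metabolic genes or enzymes and 5 act in lysosome transport, autophagy or signalling. Another 4 act at the centrosome or cilium, 4 in germ cells, 3 in DNA repair and 2 in chromatin or as zinc finger proteins. The other 61 were put in none of these groups. There were 10 guides for 88 genes, 7 guides for 2 genes and 1 guide for 2 genes.

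Dead libraries a, b and c held 14722850, 13275792 and 15591466 reads, and living libraries a and b 6801049 and 8492138. Values are normalised counts from the deposited table, on which 1 read was worth 0.761 to 0.863 in the dead libraries and 1.25 to 1.57 in the living ones. A guide with few reads was therefore measured more coarsely in the living cells. Reads carry no molecular identifiers. The Wilson intervals below are for shares of guides, and the interval of a gene change comes from the spread between libraries. Neither kind is an interval for the counting of reads.

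As a whole the set took nearly the same share of both groups of libraries. Guides against Rik and Gm genes made up 8.94% of all guides and took 9.34%, 9.29% and 9.19% of normalised counts in the dead libraries (a, b and c), against 9.19% and 9.11% in living libraries a and b. The lowest dead share was level with the higher living one. The median guide of the set stood at 188, 249 and 204 normalised counts in the dead libraries and at 238 and 229 in the living ones, so the dead libraries lay on both sides of the living ones. The 10 most abundant guides of the set took 13.2%, 15.8% and 15.6% of its counts in the dead libraries and 12.2% and 11.8% in the living ones, higher in every dead library. Control guides showed the same order: the 10 most abundant non-targeting guides took 25.3%, 29.9% and 29.8% of their class in the dead libraries and 22.9% and 21.7% in the living ones. For safe-targeting guides these shares were 25.2%, 26.8% and 26.3% in the dead and 24.2% and 23.3% in the living libraries.

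Replicate libraries of the dead cells differed more among themselves than those of the living cells. Over the tested guides of the set, the log2 difference between 2 libraries had an SD of 1.75, 1.53 and 1.37 for the 3 pairs of dead libraries and of 0.76 for the pair of living libraries. The same order held for non-targeting guides, with 1.93, 1.60 and 1.51 for the dead pairs and 0.95 for the living pair. This spread sets the size of difference that 3 and 2 libraries can show.

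Many guides of the set were missing from every library, more of them for Gm than for Rik names. Of the 896 guides, 231 (25.8%, 95% Wilson interval 23 to 28.7) were at 0 in all 5 libraries. The share was 22% of the 8375 guides against other genes (21.1 to 22.9), 19.2% of non-targeting guides (15.5 to 23.5) and 26.9% of safe-targeting guides (22.7 to 31.6). Guides at 0 in each of 5 libraries are below what these libraries detect, and whether they were in the cells at the start was not measured here. Counting guides that never had more than 2 reads in a library, the number was 238.

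Gm names carried more guides at 0 than Rik names. The share was 39.1% of 179 guides against Gm genes (32.3 to 46.4) and 22.5% of 717 guides against Rik genes (19.6 to 25.7). This rested on 4 Gm genes in which at least 7 of 10 guides were at 0, chosen after the counts were seen: Gm14483 with 10, Gm3417 with 9, Gm13306 with 8 and Gm14296 with 7. Together they had 34 of 40 guides at 0 (85%), while the other 16 Gm genes had 36 of 139 (25.9%). Gm14483, now H2al1a, encodes an H2A.L histone, a short histone variant of late sperm precursors. Gm14474 (H2al1b) and Gm6026 (H2al2c), of the same family, had a single guide each, and it was at 0. Over the 7 H2A.L genes, 18 of 46 guides were at 0 (39.1%, 26.4 to 53.5). RefSeq lists 14 genes with symbols that start with H2al1 and 3 that start with H2al2, so a guide against a member may match near-identical copies, and the assignment of such guides to 1 gene is uncertain.

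Among the 88 genes with 10 guides, the number at 0 had a median of 2, as in the 831 other genes with 10 guides. The means were 2.57 for the set and 2.20 for the others. At least 5 guides were at 0 in 12 genes of the set (13.6%) and in 53 of the others (6.38%). Those 12 included the DNA repair gene Shld1 (1110034G24Rik), the lysosome positioning gene Borcs6 (2310047M10Rik) and the autophagy gene C9orf72 (3110043O21Rik), with 5, 6 and 5 guides at 0. No guide was at 0 for 10 genes, among them 4933427D14Rik, 1700019D03Rik and Cfap410 (1810043G02Rik).

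Dead galactose and living glucose libraries were then compared for each gene. Guides with a mean of at least 10 normalised counts over the 5 libraries were kept, log2(normalised count + 1) was averaged over the guides of a gene, and genes with at least 3 such guides entered limma, a linear model with a moderated variance (2-sided, Benjamini-Hochberg over all 915 genes). A change below is dead minus living on this scale, which understates changes of low counts. Of the set, 627 guides (70.0%) and 87 genes passed these filters. The 5 genes left out were Gm13306, Gm3417, H2al1a, H2al1b and H2al2c, with 2, 1, 0, 0 and 0 guides that passed.

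No gene of the set passed an adjusted p of 0.05, with 0 of 87 higher and 0 of 87 lower, where percent called over all 915 genes was 0 in both directions. The lowest adjusted p in the set was 0.236. At an unadjusted p under 0.05, 3 genes were higher (3.45%, against 1.53% of all genes) and 6 were lower (6.90%, against 7.98%). limma with voom weights was also run on recovered reads summed over the tested guides of a gene, so that abundant guides counted most. It called 0 genes of the set as well. At that unadjusted level, 5 were higher (5.75%, against 4.7% of all genes) and 5 lower (5.75%, against 10.7%). For 10 genes the lowest dead library exceeded the higher living one (11.5%, against 8.31% of all genes) and for 17 the highest dead library was under the lower living one (19.5%, against 23.9%). Except at the adjusted p, the share higher was above that of all genes each time and the share lower was under it. The counts are small, and no test compared the shares.

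Gene changes of the set ran from −0.91 to 0.93 with a median of −0.11, and those of all 915 genes from −1.88 to 1.26 with a median of −0.16. The change was above 0 for 34 of 87 genes (39.1%), and for 31.8% of all genes. This split moves with the scaling: 23 genes (26.4%, against 20.2% of all genes) were above 0 when libraries were scaled to equal totals, and 53 (60.9%, against 53.4%) when they were centred on the control guides. Their SD was 0.36 in the set and 0.41 over all genes, while the median standard error of a gene was 0.25 and 0.27. Taken against 1 dead library at a time, the set's median was −0.18 for dead library a, −0.04 for b and 0.04 for c, and the median of all genes was −0.20, −0.18 and −0.03. Without dead library a, the median of the fit was 0.037 for the set and −0.11 for all genes.

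Single guides of the set had a spread between dead and living cells close to that of the control guides. Of the 627 tested guides, 268 were higher in the dead cells (42.7%), against 43.7% for other genes, 38.5% of 286 non-targeting guides and 51.3% of 263 safe-targeting guides. The guide changes had a median of −0.08 and an SD of 0.93 in the set. Those of other genes had a median of −0.09 and an SD of 1.03, those of non-targeting guides −0.17 and 0.99, and those of safe-targeting guides 0.01 and 1.07. limma on single guides called 0 guides of the set higher and 0 lower (0 and 0.0276% of all 7248 guides). At an unadjusted p under 0.05 it gave 24 higher (3.83%, against 3.63% of all) and 28 lower (4.47%, against 4.24%). For 96 guides every dead library exceeded both living ones (15.3%, against 15% of all) and for 103 every dead library was under both (16.4%, against 17.7%).

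The spread was carried by rare guides. The change had an SD of 1.94 over the 97 guides of the set with a mean of 10 to 100 normalised counts, 0.64 over the 262 guides from 100 to 1000, and 0.42 over the 268 guides above 1000. Non-targeting guides had SDs of 1.71, 0.72 and 0.45 in the same ranges, and safe-targeting guides 1.99, 0.77 and 0.44. A change beyond 2 log2 units in either direction was seen in 28 of the 97 rare guides, in 1 of the 262 and in 0 of the 268. Of the rare guides of the set, 36.1% were higher in dead cells, against 30.6% for other genes, 29.5% for non-targeting and 35.3% for safe-targeting ones, while 49.3% of the set's guides above 1000 were higher. The rarest tested guide of a gene had its largest change in 37 of the 87 genes (42.5%) and in 48.5% of all 915 genes. It did so in 8 of the 10 genes at the ends of the set, which are given next. These genes were picked by their change, so their values are a description.

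4930564B18Rik, now Erich6b and named for its glutamate-rich protein, had the highest change. Its mean log2 guide level was 9.71, 9.79 and 9.63 in the dead libraries, against 8.87 and 8.69 in living libraries a and b. Every dead library was above both living ones, by 0.93 ± 0.19 on average (SE, limma adjusted p = 0.236). This came from 1 of its 8 tested guides, which had 78.4, 191 and 111 normalised counts in the dead libraries (103, 221 and 143 reads) and 0 in both living ones. Against a floor of 3 reads per living library, that guide was at least 29.96-fold higher in dead cells, and its own test gave an adjusted p of 0.0606. The other 7 guides changed by −0.21 to 0.37, and without guides at 0 in a whole group the gene stood at 0.08. With the median guide level of each library in place of the mean, the gene stood at −0.04. The median of its 8 guide changes was 0.12.

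2310022B05Rik, for which no role is given here, had the next value. The mean log2 guide level was 8.36, 9.13 and 8.24 in the dead libraries and 7.68 and 7.76 in the living ones, so that the groups did not overlap. The change was 0.86 ± 0.31 (SE, limma adjusted p = 0.403), with 7 of 8 tested guides higher. Its rarest tested guide had 17.5, 34.5 and 24 normalised counts in the dead libraries, against 1.57 and 0 in the living ones. A pair of abundant guides of this gene moved in opposite directions: 1 had 695, 1969 and 1888 normalised counts in the dead libraries and 565 and 668 in the living ones, and the other 2188, 835 and 1079 in the dead and 2228 and 2443 in the living ones. Guides averaging 50 or more gave 0.42.

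2610002J02Rik is now Faap20, a subunit of the Fanconi anaemia core complex, which acts in the repair of DNA crosslinks. Its mean log2 guide level was 8.29, 9.21 and 8.92 in the dead libraries and 8.24 and 7.86 in the living ones. The lowest dead value thus lay just above the higher living one. The change was 0.75 ± 0.32 (SE, limma adjusted p = 0.536), with 6 of 7 tested guides higher. The rarest of these stood at 14.5, 58.7 and 7.74 normalised counts in the dead libraries, against 4.71 and 0 in the living ones. Its most abundant guide had 5410, 6412 and 6749 normalised counts in the dead libraries and 4431 and 4646 in the living ones, with no overlap, while the next had 2348, 1869 and 2268 in the dead and 4004 and 3308 in the living ones, the opposite order. With voom on recovered reads the gene stood at 0.0024, and without dead library b at 0.26.

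1700034E13Rik had 6 of 10 guides at 0, and its value came from 1 of the 4 tested ones. Mean log2 guide levels were 10.69, 10.41 and 10.94 in the dead libraries and 10.16 and 9.83 in the living ones, a change of 0.68 ± 0.24 (SE, limma adjusted p = 0.398). That guide had 67.7, 60.4 and 207 normalised counts in the dead libraries, against 20.4 and 7.49 in the living ones. The other 3 guides, each far more abundant, changed by −0.07 to 0.01, and the median guide level gave −0.05.

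3425401B19Rik, listed in RefSeq with the synonym Cefip, a protein of the heart muscle Z-disc, took 0.294%, 0.221% and 0.244% of normalised counts in the dead libraries and 0.271% and 0.266% in the living ones. This was among the 3 largest shares of the set, and by total count the dead libraries lay on both sides of the living ones. By mean log2 guide level it stood at 10.55, 10.59 and 10.63 in the dead and 10.03 and 10.31 in the living libraries, higher in every dead library. The change was 0.42 ± 0.19 (SE, limma adjusted p = 0.560), with 4 of its 8 tested guides higher. Its guides ran from −0.35 to 2.36, the last being the rarest, and voom on recovered reads gave −0.09.

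At the other end, 1110059G10Rik had the lowest change of the set, and 7 of its 8 tested guides were lower. No role is given for it here. Its mean log2 guide level was 8.33, 7.91 and 8.69 in the dead libraries, against 9.22 and 9.22 in the living ones, and every dead library lay below both. The change was −0.91 ± 0.27 (SE, limma adjusted p = 0.337). The most abundant guide had 4022, 2581 and 2766 normalised counts in the dead libraries and 4235 and 4339 in the living ones. A rare guide had 2.28, 2.59 and 20.1 in the dead libraries and 61.2 and 89.9 in the living ones. The gene remained below 0 under each of the 14 alternatives run, from −1.10 to −0.25. The value of −0.25 came from guides with a mean of 50 or more. Its rarest tested guide changed by −2.22 and the others by −3.58 to 0.27. In the authors' deposited gene table it was placed 10 for loss, with p-value 0.00557 and FDR 0.372.

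1110004F10Rik stood at 7.01, 8.04 and 8.22 mean log2 guide level in the dead libraries and at 8.51 and 8.67 in the living ones. The change was −0.83 ± 0.39 (SE, limma adjusted p = 0.570), with 1 of 6 tested guides higher. Dead library a was the lowest, and without it the change was −0.46. Guides with a mean of 50 or more gave −0.28, and the rarest tested guide changed by −2.68. The gene also had a guide under the filter that was at 0 in all 3 dead libraries and had 17.3 and 8.74 normalised counts in living cells (11 and 7 reads). Against a floor of 3 reads per dead library, that guide was at least 5.42-fold lower in the dead cells.

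4933411G11Rik, now Spdye4b, belongs to the Speedy family of proteins that bind and activate cyclin-dependent kinases. Its mean log2 guide level was 8.80, 8.74 and 8.80 in the dead libraries and 9.65 and 9.46 in the living ones, a change of −0.77 ± 0.18 (SE, limma adjusted p = 0.321) with no overlap. Of its 7 tested guides, 4 were higher in dead cells. The value rested on a guide with 0, 0 and 0.774 normalised counts in the dead libraries (1 read in all) and 36.1 and 36.2 in the living ones, for which the guide test gave −4.94 and an adjusted p of 0.0606. From guides with a mean of 50 or more the gene stood at −0.08, and its median guide level gave 0.12. Leaving out either living library also took the guide with 36.1 and 36.2 in the living libraries under the filter. The gene then stood at 0.03 (without a) or −0.19 (without b).

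4930563D23Rik, now Fam243, had mean log2 guide levels of 8.49, 8.15 and 9.14 in the dead libraries and 9.30 and 9.35 in the living ones. Every dead library was lower, with library c closest to the living ones. The change was −0.73 ± 0.32 (SE, limma adjusted p = 0.536), and 2 of 9 guides were higher. A guide with 32.0, 0.863 and 41.8 normalised counts in the dead libraries and 100.4 and 101.1 in the living ones changed most. Its 5 guides above 1000 normalised counts in every library changed by −0.40 to 0.18.

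1700019D03Rik encodes a small anchoring protein for protein kinase A at the plasma membrane. It held the next largest share of the set after that of 9130401M01Rik, at 0.310%, 0.299% and 0.337% of normalised counts in the dead libraries and 0.321% and 0.323% in the living ones, so the dead libraries lay on both sides. Mean log2 guide levels were 9.98, 9.53 and 9.32 in the dead libraries and 10.32 and 10.25 in the living ones, all lower in the dead. The change was −0.67 ± 0.25 (SE, limma adjusted p = 0.451), with 4 of its 9 tested guides higher. It was set by 2 rare guides: 1 had 19, 63 and 4.65 normalised counts in the dead and 158 and 119 in the living libraries, and the other 35.8, 0 and 0 in the dead and 62.8 and 56.2 in the living ones. Of its abundant guides, the first had 10459, 10547 and 13205 normalised counts in the dead and 12815 and 11942 in the living libraries, which overlapped. The next had 8917, 9634 and 11425 in the dead and 6456 and 6933 in the living libraries, higher in each dead library (0.57 ± 0.22). The voom value was −0.03.

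The 3 most abundant guides of the set included those of 9130401M01Rik and 4933427D14Rik. 9130401M01Rik held the largest share of the set, with 0.357%, 0.470% and 0.396% of normalised counts in the dead libraries and 0.291% and 0.305% in the living ones. Its most abundant guide, the most abundant of the whole set and at place 11 among all guides, had 17560, 31081 and 29119 normalised counts in the dead libraries against 10338 and 11094 in the living ones. That is a mean of 25920 ± 7306 (SD, n = 3) against 10716 ± 535 (SD, n = 2), and a log2 change of 1.23 ± 0.33 (SE, limma adjusted p = 0.603). By the mean over its 9 tested guides the gene stood at −0.06 ± 0.21, with 5 guides higher, and by voom on recovered reads at 0.44. The mean was pulled down by a rare guide at 3.04, 0 and 41.0 normalised counts in the dead libraries and 61.2 and 25.0 in the living ones.

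4933427D14Rik encodes a centriolar satellite protein known as moonraker in humans. Its most abundant guide had 8460, 25911 and 28468 normalised counts in the dead libraries and 7164 and 6827 in the living ones, so that libraries b and c stood far above dead library a. The guide's change was 1.40 ± 0.62 (SE, limma adjusted p = 0.603). The gene's mean log2 guide level was 9.01, 9.80 and 9.73 in the dead libraries and 9.58 and 9.56 in the living ones, which overlapped, and its change was −0.05 ± 0.29 with 5 of its 10 tested guides higher. Without dead library a it was 0.20. All 10 of its guides were measured.

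Both genes were near the top for gain in the authors' deposited gene table. The set held 89 of the 925 entries of that table. Of the first 30 entries for gain, 5 were of the set: Gm614 at place 10, 4933427D14Rik at 11, 9130401M01Rik at 18, 2310022B05Rik at 19 and 1700003E16Rik at 23. Their p-values there ran from 0.0277 to 0.0498 and their FDR was 1. Gm614 stood at 10.42, 10.45 and 10.28 mean log2 guide level in the dead libraries and 10.46 and 10.43 in the living ones, which overlapped (−0.06 ± 0.18, 5 of 9 guides higher). 1700003E16Rik stood at 9.95, 10.33 and 9.94 in the dead and 9.78 and 9.86 in the living libraries, higher in every dead library (0.25 ± 0.21, SE, limma adjusted p = 0.708, 4 of 9 guides higher), and its change was 0.12 without dead library b. In both genes an abundant guide was higher in each dead library. The Gm614 guide had 7873, 11612 and 11849 normalised counts in the dead and 4228 and 4132 in the living libraries, a change of 1.30 ± 0.27 (SE, limma adjusted p = 0.571). The 1700003E16Rik guide had 10029, 18682 and 14316 in the dead and 7919 and 7432 in the living libraries (0.86 ± 0.33).

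For loss, the first 30 entries of the authors' deposited gene table held 1110059G10Rik and, at place 29, Gm14446. Gm14446 is now Ifit1bl1, of the IFIT family that interferon induces and that acts on viral RNA. It had mean log2 guide levels of 8.76, 8.69 and 8.47 in the dead libraries and 8.90 and 9.09 in the living ones, all lower in the dead (−0.36 ± 0.20, SE, limma adjusted p = 0.615). None of its 6 tested guides was higher, and their changes ran from −0.75 to −0.11. Of the 89 genes of the set in that table, 6 had a p-value under 0.05 for gain (6.74%, against 3.35% of all 925 entries) and 13 for loss (14.6%, against 11.5%). Their lowest FDR was 1 for gain and 0.372 for loss.

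Gm20654, now Ly6l, of the Ly6 family of small surface proteins, had a guide under the filter that was at 0 in all dead libraries and had 12.6 and 21.2 normalised counts in living cells (8 and 17 reads). It was at least 7.04-fold lower in the dead cells against a floor of 3 reads per library. The gene's mean log2 guide level was 11.30, 11.12 and 11.12 in the dead libraries and 11.57 and 11.51 in the living ones, lower in each dead library (−0.36 ± 0.19, SE, limma adjusted p = 0.596). Of its 6 tested guides, 1 was higher. Some guides were at 0 in every library of 1 group and had at least 3 reads in each of the other. In the set, 1 was gained and 2 were lost of 896 guides, against 2 gained and 40 lost of 8375 guides of other genes. The counts were 0 and 2 of 375 non-targeting guides and 0 and 0 of 375 safe-targeting guides. The classes differ in size, and the counts of the set are too small to compare.

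The genes assigned to a role group were then taken by group, and limma called 0 genes in each. These lists were drawn up with earlier results of these data known. Of the 6 metabolic genes and enzymes, 2 had a change above 0 and 4 below, from −0.57 to 0.27, and 15 of their 44 tested guides were higher. 9630033F20Rik is Tigar, a phosphatase that slows glycolysis and shifts sugar into the pentose phosphate pathway. The Tigar mean log2 guide level was 9.81, 10.17 and 9.82 in the dead libraries and 10.08 and 10.29 in the living ones. Library b of the dead cells lay between the living ones, and the change was −0.25 ± 0.22 (SE, limma adjusted p = 0.708), with 2 of its 7 tested guides higher (−0.14 without living library b). Its guides did not move together: 1 had 1751, 3437 and 3767 normalised counts in the dead libraries and 1560 and 1886 in the living ones, and another 1533, 1417 and 1374 in the dead and 2092 and 2142 in the living ones. In the authors' deposited gene table Tigar was placed 43 for loss (p-value 0.0198, FDR 0.416).

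2410127L17Rik is Carnmt1, which methylates carnosine to anserine. It stood at 6.21, 6.89 and 7.22 mean log2 guide level in the dead libraries and at 7.16 and 7.52 in the living ones, with dead library c between them (−0.57 ± 0.34, SE, limma adjusted p = 0.619). Of its 7 tested guides 1 was higher. Without dead library a the change was −0.29. The median guide level gave −0.10, while the median of the guide changes was −0.36. Mettl26 (0610011F06Rik) had the highest value of this group, 0.27 ± 0.26, and Armt1 (1700052N19Rik), a protein methyltransferase, stood at −0.34 ± 0.47.

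The 3 DNA repair genes ran from −0.23 to 0.75, with Faap20 at the top and 13 of 21 tested guides higher. Shld1, a subunit of the shieldin complex that limits resection of DNA ends, stood at −0.05 ± 0.25 with 3 of its 5 tested guides higher. Mrnip (3010026O09Rik), a partner of the MRN complex that senses DNA breaks, had 8.99, 9.19 and 9.38 mean log2 guide level in the dead libraries and 9.53 and 9.30 in the living ones, which overlapped (−0.23 ± 0.21, and 0.19 without living library a).

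The 4 genes grouped as germ cell genes had 5 of 40 guides at 0 (12.5%, against 25.8% of the whole set). Of their tested guides, 10 of 33 were higher. The H2A.L histones, also of sperm precursors, were grouped apart and had 18 of 46 guides at 0 (39.1%), so the low share depends on the grouping. Majin (1700123I01Rik) ties telomeres to the nuclear envelope in meiosis. Its mean log2 guide level was 10.33, 9.81 and 10.06 in the dead libraries and 10.49 and 10.33 in the living ones. Dead library a (10.326) was level with living library b (10.329), and dead libraries b and c were lower. The change was −0.34 ± 0.23 (SE, limma adjusted p = 0.638), and −0.21 without dead library b. Tex45 (1700019B03Rik) stood at 9.24, 9.02 and 8.90 in the dead and 9.36 and 9.44 in the living libraries, without overlap (−0.35 ± 0.20, SE, limma adjusted p = 0.619). Spaca9 (1700026L06Rik) stood at 0.32 ± 0.28 with 2 of its 9 tested guides higher, at −0.19 without guides at 0 in a whole group, and between 0.12 and 0.51 with 1 library left out. Tex52 (4933413G19Rik) stood at 0.11 ± 0.21.

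Of the 5 genes of lysosome transport, autophagy and signalling, C9orf72, whose protein acts with SMCR8 in autophagy and at lysosomes, was the least well measured. It had 5 guides at 0 and took between 0.00575% and 0.0133% of normalised counts. Its mean log2 guide level was 4.72, 7.05 and 6.69 in the dead libraries and 6.58 and 5.83 in the living ones, a change of −0.05 with a 95% interval from −1.83 to 1.72, and of 0.67 without dead library a. Borcs6, a subunit of the complex that couples lysosomes to kinesin, stood at −0.14 ± 0.24 with 4 tested guides. Garre1 (4931406P16Rik) stood at 0.02 ± 0.18 and the neuropeptide gene Spx (B230216G23Rik) at 0.13 ± 0.25.

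The centrosome and cilium group had 3 tested genes and 12 of 26 guides higher. Cfap410, a ciliary protein, had 8.97, 8.95 and 9.01 mean log2 guide level in the dead libraries and 9.27 and 9.25 in the living ones, lower in each dead library and close within each group (−0.28 ± 0.18, SE, limma adjusted p = 0.637). Of its 10 guides, 3 were higher. Kif28 (Gm1305), a kinesin, stood at −0.09 ± 0.49. Gm3417, which was left out of the gene test, had 1 measured guide, with 134, 110 and 2.32 normalised counts in the dead libraries and 4.71 and 0 in the living ones, so 2 dead libraries were high and the third was like the living ones. RefSeq lists 3 genes with the symbol or synonym Tcte3, to which Gm3417 belongs.

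The 4 tested H2A.L genes lay close to 0, from −0.15 to 0.19, and 13 of their 26 tested guides were higher. Their guide changes had an SD of 0.47, against 0.94 for the other guides of the set. In the whole set the SD was 1.94 for guides under 100 normalised counts and 0.64 from 100 to 1000. The rarest tested guides of H2al1m, H2al1o, H2al2b and H2al1j averaged 103, 120, 175 and 51.1, so these genes had few rare guides. Whether abundance accounts for the smaller SD was not tested. H2al1m (1700012L04Rik) stood at 0.19 ± 0.20, H2al1o (Gm5132) at 0.13 ± 0.30, H2al2b (Gm16501) at −0.14 ± 0.20 and H2al1j (Gm4906) at −0.15 ± 0.24. In chromatin, Resf1 (2810474O19Rik), a repressor of retroviral elements, stood at −0.15 ± 0.60 and the zinc finger gene Zfp965 (Gm8923) at 0.02 ± 0.33.

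Genes put in none of the role groups spanned the whole range, with 24 of 60 tested above 0. They are not all of unknown function: Spdye4b, 3425401B19Rik, Ifit1bl1 and Ly6l, described above, are among them. Gm5294 stood at 9.27, 9.38 and 9.41 mean log2 guide level in the dead libraries and 9.97 and 9.98 in the living ones, lower in each dead library (−0.63 ± 0.18, SE, limma adjusted p = 0.337, 1 of 5 guides higher). For 1600014C10Rik these values were 9.49, 9.44 and 9.58 in the dead and 10.00 and 10.00 in the living libraries (−0.50 ± 0.18, SE, limma adjusted p = 0.403). A guide with a change of −4.21 set much of this, and with a mean of at least 50 per guide the gene stood at −0.03. That guide had a mean of 12.6, near the filter, which was applied again to the libraries kept. Without living library a or b the gene stood at −0.052 or −0.0083. Gm136 stood at −0.55 ± 0.19, with 3 of its 6 tested guides higher, and at 0.046 without living library b. Its median guide level gave 0.64, while the median of its guide changes was 0.11. 5730409E04Rik had 7 of 8 guides higher at 0.38 ± 0.24, and 1810013L24Rik had 0 of 8 higher at −0.48 ± 0.37, neither past the test. Renamed genes had a median of −0.14 and those that kept the provisional name −0.06, with 26.3% and 25.4% of guides at 0.

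Among single guides with a mean of at least 50, the highest changes after that of Erich6b (6.90) belonged to Gm3417 (3.94), 1700034E13Rik (2.83), 1700022I11Rik (2.12) and Mettl26 (1.77). The guides of Erich6b, Gm3417 and 1700034E13Rik were under 50 in both living libraries and passed this cut through the dead ones. For Gm3417 the mean was 50.1. The Fam243 guide, named below, was under 50 in every dead library and passed through the living ones. The 1700022I11Rik guide had 109, 552 and 364 normalised counts in the dead libraries against 73.7 and 54.9 in the living ones. The Mettl26 guide had 112, 336 and 310 in the dead libraries against 72.2 and 59.9 in the living ones, and for both every dead library was higher. The lowest changes were those of guides against 4930503L19Rik (−3.06), Fam243 (−2.88), 1700019D03Rik (−2.84), Armt1 (−2.48) and 4933427D14Rik (−1.58). The 4930503L19Rik guide had 0, 64.7 and 62.7 normalised counts in the dead libraries and 174 and 102 in the living ones. The Armt1 guide had 127, 0.863 and 62.0 in the dead libraries and 160 and 117 in the living ones, so that dead library a overlapped the living range. All 10 had an adjusted p of at least 0.0606. The guide at place 2 of the set by abundance, against 1700029J07Rik, had 14595, 17918 and 17328 normalised counts in the dead libraries. In the living libraries it had 13889 and 13154, so it was higher in each dead library (0.29 ± 0.21).

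The authors' deposited guide table gave an FDR under 0.05 to 258 of the 627 tested guides of the set (41.1%), 142 for gain and 116 for loss. The share was 43.4% for guides of other genes, 42.0% for the non-targeting class and 46.0% for the safe-targeting one, neither of which has a gene to lose.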

How the data were processed

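The members and lists were chosen with earlier results of these data known. The submitters' processing notes name MAGeCK 0.5.9.5; how it was set is not given in the sources used here. As the file headers show, the authors deposited normalised guide counts of the 3 dead and 2 living libraries, joined in 1 cell per group without replicate numbers, so libraries are called a, b and c by place. The authors' deposited columns of group signal were set aside, and their log2 fold changes, p-values and gene rank scores were used only where named. Low values were whole multiples of 1 step per library (100% within 0.1 read), which gave whole reads.

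In limma 3.58.1 (R 4.3.3, lmFit and eBayes), log2(normalised count + 1) of guides with a mean of at least 10 was averaged per gene with at least 3 such guides, all 915 genes in 1 fit, dead minus living, Benjamini-Hochberg threshold 0.05. Single guides (7248) were fitted likewise. Since dead libraries were 3 of the 5 averaged, a rare guide passed the filter more easily when it was higher in dead cells. The fit was tested on simulated data in which every library had the same added noise. The dead libraries here spread more than the living ones, so that test does not show how the fit behaves on them. Genes given in full were the 5 highest and 5 lowest, those in the first 30 entries for gain or loss of the authors' deposited gene table, the 3 with the largest share, the 3 with the largest share of guides at 0 and those with a guide at 0 in 1 group and 3 or more reads in each library of the other. Single guides in full were the 5 highest and 5 lowest with a mean of at least 50 and the 3 most abundant. In all 14 alternatives were run, 2 of them chosen after seeing the data (voom, and leaving out guides at 0 in a whole group). Names came from RefSeq's GRCm38.p6 table. The UV-RIP libraries were not used here.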

Additional observations from a re-analysis of the deposited data

How the results depend on the processing

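No gene of the set was called by limma under any of the 14 alternatives. Of 377 values of the 27 genes given in full or named with library values, 344 kept their direction, and 16 genes never changed sign. Guides called numbered 2 with the filter on the mean of both group means and 2 at equal totals, each time Erich6b (higher) and Spdye4b (lower), and 0 to 1 when a library was left out (1700019D03Rik, lower, without dead library a). Over all guides these settings called 13 of 7263, 9 of 7249 and, without dead library a, 12 of 7253. The set's median gene change was −0.24 at equal totals and 0.068 centred on control guides, and −0.155 to 0.037 when a library was left out, with 0.037 without dead library a. The median of all 915 genes was −0.28, 0.03 and −0.16 at equal totals, centred and unchanged. The set lay 0.041 above it in each, but both rescalings shift whole libraries and could hardly alter this difference. Under the other alternatives it ran from −0.026 (voom on recovered reads) to 0.151 (without dead library a), with −0.019 for the median guide level.

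Signs turned for 11 genes. With a library left out, the filter was applied to the libraries kept, which could also drop a rare guide, as it did for Spdye4b. The cause was otherwise not tested. With the median guide level of each library in place of the mean, Erich6b stood at −0.042, 1700034E13Rik at −0.053, Spdye4b at 0.12 and Gm614 at 0.20. By the same measure 4933427D14Rik stood at 0.069, 9130401M01Rik at 0.29, Spaca9 at −0.078 and Gm136 at 0.64. This is not the median of the guide changes, which was 0.12 for Erich6b. The voom fit sums the reads of a gene and so differs from the mean log2 guide level in more than its weights. By voom on recovered reads, 1700034E13Rik stood at −0.12, 3425401B19Rik at −0.092, Gm614 at 0.49, 4933427D14Rik at 0.72, 9130401M01Rik at 0.44, Spaca9 at −0.30 and Gm136 at 0.12. Centred on control guides, Gm614 stood at 0.12, 4933427D14Rik at 0.13, 9130401M01Rik at 0.12 and C9orf72 at 0.13. From guides with a mean of 50 or more, 9130401M01Rik stood at 0.29, Mrnip at 0.082, Spaca9 at −0.32 and Gm136 at 0.053. A pseudocount of 5 gave 0.047 for 9130401M01Rik, and leaving out guides at 0 in a whole group gave −0.19 for Spaca9. With 1 library left out, Spdye4b ranged from −0.78 to 0.032, 4933427D14Rik from −0.20 to 0.20, 9130401M01Rik from −0.17 to 0.013, Mrnip from −0.32 to 0.19, C9orf72 from −0.50 to 0.67 and Gm136 from −0.65 to 0.046.

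No paired analysis was possible because the joined cells carry no replicate numbers. A planned edgeR fit was not run, since cells that hold several libraries could not be checked as counts. With 3 and 2 libraries, and 1 read worth up to 1.57 normalised counts, changes of rare guides were not well measured.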
